A study of Rattus norvegicus with 6 samples.

Results

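The synuclein family genes Sncb, which encodes beta-synuclein, and Sncg, which encodes gamma-synuclein, were followed through RNA sequencing of rat cochlear outer hair cells. They are 2 of the 35790 genes in the deposited table, each found by its symbol and each with 1 row. They were selected on their measured apical and basal read counts and FPKM values (FPKM, counts scaled by transcript length and library size), which were already known, so their difference between the turns is described here and not tested. All 6 libraries came from rats of the Sprague-Dawley strain, wild type and at postnatal day 9, with 3 libraries from the apical turn and 3 from the basal turn of the cochlea. The apical turn responds to low and the basal turn to high frequencies, and the study relates the outer hair cells of these turns to differences in structure, function and vulnerability. Each library held 30 outer hair cells picked under a microscope after 10 min in collagenase IV at 1 mg/ml. The labels' protocols also name 3 ug of RNA for making the libraries, which is far more than so few cells hold, and how the amounts relate is not stated there. The sources used here do not say if the libraries of a turn came from separate animals, and p-values therefore cover no more than library-to-library spread, which may be technical.

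Synucleins are small, soluble proteins that bind membranes of acidic phospholipids, and they are abundant in neurons, where beta-synuclein lies at presynaptic terminals and gamma-synuclein along axons and in cell bodies. Beta-synuclein slows the aggregation of other proteins in the test tube, and gamma-synuclein is a known transcript of peripheral sensory and motor neurons and of retinal ganglion cells. In the cochlea, outer hair cells stand beside the endings of afferent and efferent nerve fibres, which reach them through bundles ensheathed by Schwann cells.

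The libraries held between 16511675 and 23140976 counts, so that 3 counts equalled 0.130 to 0.182 CPM, which puts each count on a scale shared by libraries of different size. Of 17 outer hair cell markers, led by Ocm2 and Calb1, each library had a count for 16 or 17. They took 2.24% to 4.28% of apical counts and 6.84%, 2.34% and 0.874% of counts in basal replicates 1, 2 and 3. In the edgeR fit over all genes, 5 of the 16 markers tested had higher and 11 lower fitted values in basal libraries. Their median log2 fold change was -1.14, against -0.02 for all genes tested. Ocm2 (oncomodulin, a calcium buffer of outer hair cells) had 257630, 305332 and 112386 apical and 988572, 241732 and 116710 basal counts, and Pou4f3, a hair cell transcription factor, 7732, 3434 and 4372 apical and 18087, 2882 and 1160 basal counts. Slc26a5 (prestin, the motor protein of these cells) had 10009, 3921 and 2545 apical and 866, 2782 and 820 basal counts, and Chrna9, a subunit of their efferent receptor, 14124, 9498 and 5270 apical and 2065, 1453 and 1205 basal counts. Markers of Schwann cells, connective tissue and red blood cells were highest in basal replicates 2 and 3, while macrophage, supporting cell and inner hair cell markers did not set them apart. The 16 Schwann cell markers took 0.0447% to 0.104% of apical counts and 0.364%, 3.77% and 2.58% of counts in basal replicates 1, 2 and 3, with Pmp22 among the most abundant. The 14 connective tissue and bone markers, led by Ibsp and Sparc, took 0.349% to 0.422% of apical counts and 0.180%, 1.18% and 2.95% of basal counts. The 8 red blood cell markers, led by Hba-a1 and Hbb, took 0.0178% to 0.153% and 0.247%, 1.14% and 0.785%. The 14 macrophage markers, led by Lyz2 and Laptm5, took 0.0163% to 0.0377% and 0.148%, 0.0251% and 0.202%, and the 20 supporting cell markers, led by S100a1 and Sparcl1, 0.636% to 1.15% and 0.251%, 0.441% and 0.272%. The 7 inner hair cell markers, led by Calb2 and Shtn1, took 0.0124% or less of apical and 0.0130% or less of basal counts.

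Sncb was low in every apical library and in basal replicate 1 and was high in basal replicates 2 and 3. The gene (ENSRNOG00000018039) lies on the plus strand of chromosome 17 from 10384511 to 10392843 on the unnamed build of the deposited table. Apical replicates 1, 2 and 3 gave 112, 59 and 130 reads, and basal replicates 1, 2 and 3 gave 137, 772 and 757. Its FPKM was 3.69, 2.39 and 4.23 in the apical and 5.59, 35.2 and 28.1 in the basal libraries. Every basal library thus lay above every apical library, but basal replicate 1 was close to the apical range. At 7.42 CPM (95% exact binomial interval 6.23 to 8.77), basal replicate 1 overlapped apical replicate 3 at 5.62 (4.69 to 6.67), intervals that cover counting error only. Non-overlap with the basal group higher was found for 5.40% of the 13507 genes tested, and nothing is read from it for Sncb, whose values were known.

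The mean FPKM of Sncb was 3.44 ± 0.95 (SD, n = 3) in apical and 23.0 ± 15.5 (SD, n = 3) in basal libraries, a ratio of 6.68. Basal replicate 1 alone stood at 1.63 times the apical mean, and the mean of basal replicates 2 and 3 at 9.21 times. The log2 fold change of basal over apical libraries from the edgeR fit over all genes was 2.75 (SE 1.16), and it was 0.91 with basal replicates 2 and 3 left out. The authors' deposited table gives a log2 fold change of 2.84. In bulk libraries such as these, more cells of a type and more RNA per cell cannot be told apart. The part that the markers of Schwann cells, connective tissue and red blood cells, high in the same basal libraries, have in the Sncb values was not tested.

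Sncg was the more abundant synuclein in all 6 libraries and had the same high basal libraries as Sncb. The gene (ENSRNOG00000058006) lies on the minus strand of chromosome 16 from 10722106 to 10726707 on the same build. Apical replicates 1, 2 and 3 gave 136, 523 and 691 reads, against 443, 4034 and 3737 in the basal replicates in the same order. Its FPKM was 8.08, 38.1 and 40.5 in the apical and 32.6, 331 and 250 in the basal libraries. The groups overlapped, because basal replicate 1 lay below apical replicates 2 and 3. At 24.0 CPM (95% exact binomial interval 21.8 to 26.3), basal replicate 1 overlapped apical replicate 2 (28.1, interval 25.7 to 30.6) within counting error but not apical replicate 3 (29.9, interval 27.7 to 32.2). Apical replicate 1 was the lowest of the 6 libraries at 5.95 (interval 4.99 to 7.04).

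The mean FPKM of Sncg was 28.9 ± 18.1 (SD, n = 3) in apical and 205 ± 154 (SD, n = 3) in basal libraries, a ratio of 7.08. Basal replicate 1 stood at 1.13 times the apical mean and the mean of basal replicates 2 and 3 at 10.1 times. The edgeR log2 fold change was 2.83 (SE 0.93), against 0.37 with basal replicates 2 and 3 left out, and the authors' deposited table gives 2.88. Among genes with an FPKM above 0, the Sncg level exceeded 57.0%, 78.9% and 82.4% in apical replicates 1, 2 and 3. It exceeded 76.6% of such genes in basal replicate 1 and 96.5% in each of basal replicates 2 and 3. For Sncb these shares were 41.9%, 25.2% and 45.0% in the apical replicates and 39.7%, 73.9% and 78.1% in the basal replicates. Beta-synuclein transcripts were thus of middling or low rank in 4 libraries, and gamma-synuclein transcripts were in the upper ranks of basal replicates 2 and 3.

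**Figure D1:**
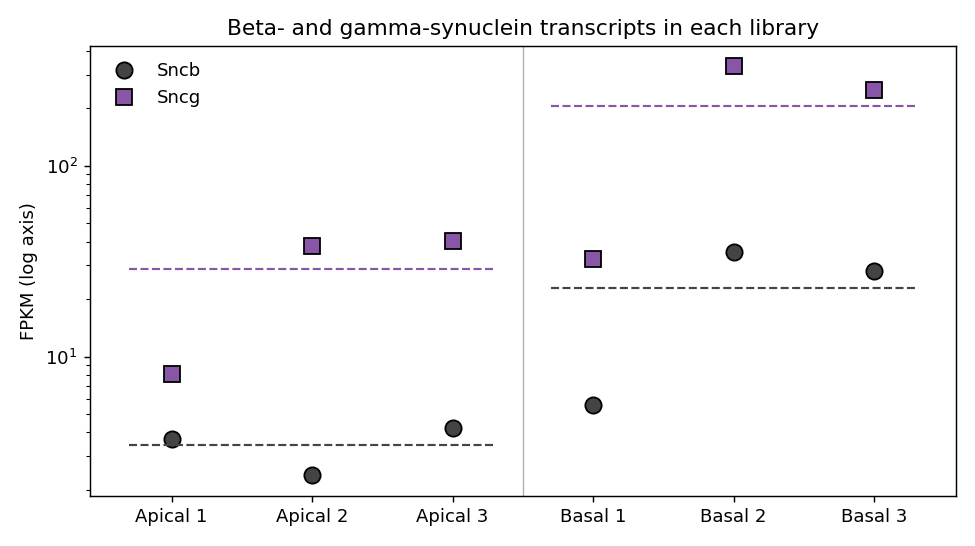
FPKM on a log axis of Sncb (circles) and Sncg (squares) in each of the 3 apical and 3 basal libraries, with dashed lines at the group means. Both genes are high in basal replicates 2 and 3 (Sncb 35.2 and 28.1, Sncg 331 and 250), while basal replicate 1 (5.59 and 32.6) lies in or near the apical range.

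Within a library the ratio of Sncg to Sncb does not depend on how libraries are scaled to each other. On FPKM it was 2.19, 16.0 and 9.57 in the apical replicates, in order, against 5.82, 9.41 and 8.89 in the basal replicates. Apical replicates 1 and 2 thus held the lowest and highest ratios, and all basal ratios lay between them. The mean log2 ratio was 2.79 ± 1.49 (SD, n = 3) in apical and 2.98 ± 0.38 (SD, n = 3) in basal libraries, a difference of 0.18 that is smaller than the spread between apical libraries. Its sign turned to -0.65 without apical replicate 1, where Sncg was lowest. Both synucleins were thus higher in basal replicates 2 and 3 at a similar ratio to each other, while their levels in apical replicates 1 and 2 differed in opposite directions.

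**Figure D2:**
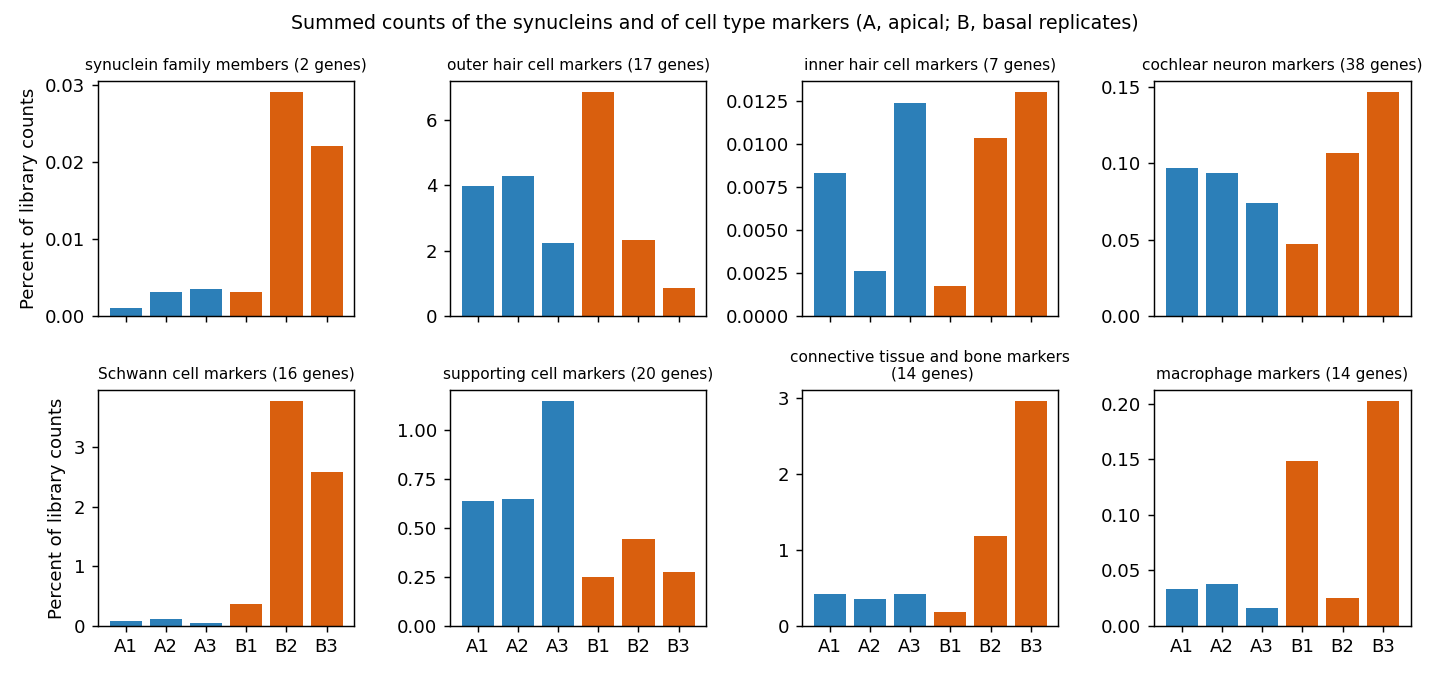
Percent of all counts in each library taken by the 2 synucleins and by 7 lists of cell type markers, with apical libraries (A1 to A3) in blue and basal libraries (B1 to B3) in orange. The synuclein, Schwann cell, connective tissue and cochlear neuron bars are each highest in B2 and B3. There, Schwann cell markers take 3.77% and 2.58% of counts, connective tissue markers 1.18% and 2.95%, and neuron markers 0.107% and 0.146%. The outer hair cell bar is highest in B1 at 6.84%, a sum led by Ocm2 with 988572 counts in that library.

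The genes beside the synucleins on their chromosomes did not repeat their pattern. No other row of the deposited table overlapped Sncb or Sncg. Mmrn2, on the opposite strand and starting 863 bases from Sncg, had 42, 0 and 0 apical and 0, 0 and 40 basal counts. Glud1 (glutamate dehydrogenase), 26548 bases from Sncg on its other side, had 4108, 1295 and 3442 apical and 3017, 849 and 3101 basal counts. Around Sncb, Eif4e1b had 0 counts in all 6 libraries and Cdhr2 had 143, 1 and 150 apical and 0 basal counts. Tspan17, a tetraspanin gene 19940 bases away, had 138, 497 and 283 apical and 1394, 1432 and 2883 basal counts. Unlike either synuclein it was high in basal replicate 1 too.

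Because both genes were high in the same basal libraries, the 250 bases before each gene's start are shown from RefSeq on assembly GRCr8, which is not known to be the build of the deposited table. The Sncb stretch is chr17:9851684-9851933 on the plus strand and the Sncg stretch chr16:9711337-9711586 on the minus strand, each read 5′ to 3′ towards the gene. Capitals mark matches to the GC box, which Sp1-type factors bind, searched as GGGCGG on both strands.
Sncb: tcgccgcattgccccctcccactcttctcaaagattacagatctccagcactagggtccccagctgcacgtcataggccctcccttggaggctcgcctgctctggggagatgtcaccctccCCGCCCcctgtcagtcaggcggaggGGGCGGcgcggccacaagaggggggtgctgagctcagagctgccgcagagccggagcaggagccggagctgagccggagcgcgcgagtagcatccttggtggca
Sncg: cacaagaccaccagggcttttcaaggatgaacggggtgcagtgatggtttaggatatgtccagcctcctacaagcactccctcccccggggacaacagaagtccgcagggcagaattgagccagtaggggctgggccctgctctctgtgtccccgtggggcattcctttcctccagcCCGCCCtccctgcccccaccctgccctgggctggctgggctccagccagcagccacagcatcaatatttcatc
The Sncb stretch held 2 GC boxes and the Sncg stretch 1, and 30.5% of the 33469 RefSeq stretches of this length held at least 1. An E-box (CANNTG), which basic helix-loop-helix factors bind, was found in the Sncb stretch, as in 65.5% of all stretches, and these letters were not in the Sncg stretch. A TATA box searched as TATAAA, a cyclic AMP response element as TGACGTCA, an AP-1 site as TGANTCA, a SOX core as ACAANG and an EGR site as GCGNGGGCG, each on both strands, had no match in either stretch. In all stretches they had matches in 12.9%, 1.59%, 6.34%, 36.9% and 4.29%. The CCAAT box, with a match in 34.0% of all stretches, had none there either. GC content was 67.2% for Sncb and 61.6% for Sncg against a median of 51.2%, and CpG pairs numbered 16 and 5 against a median of 5. These matches describe the letters and show no binding.

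Genes of presynaptic release, the setting in which synucleins are best known, did not follow them as a group. Over all 13507 genes, edgeR's quasi-likelihood test called 0 at an adjusted p of 0.05 (0%), while an unadjusted p under 0.05 was reached by 2.12% with basal libraries higher and 3.88% with apical libraries higher. DESeq2 called 1.83% of genes with an adjusted p as basal-high and 2.67% as apical-high, and non-overlapping groups with apical higher made up 10.4% of the genes tested. Of the 55 presynaptic genes matched, 45 passed the count filter, 20 of them with higher and 25 with lower fitted values in basal libraries. Their median log2 fold change was -0.35, against -0.02 for all genes tested. By edgeR's quasi-likelihood test 0 passed, 1 gene with basal and 5 with apical libraries higher had an unadjusted p under 0.05, and DESeq2 called 2 and 3. The groups did not overlap for 4 genes with basal and 9 with apical libraries higher. The median ranged from -0.71 to -0.09 with a library left out (without basal replicate 3 and basal replicate 1) and moved to -1.27 without basal replicates 2 and 3.

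Snap25, the membrane SNARE of neurotransmitter release, had 745, 710 and 550 apical and 3025, 1887 and 3126 basal counts. All basal libraries were above all apical ones, and unlike the synucleins Snap25 was high in basal replicate 1 as well. The log2 fold change of 2.27 had an SE of 0.46 (edgeR adjusted p = 0.438, DESeq2 adjusted p = 3.44e-05). Stx1a, its partner syntaxin, went the other way, with 359, 317 and 866 apical and 20, 2 and 35 basal counts and a log2 fold change of -4.48 (SE 1.61, edgeR adjusted p = 0.587, DESeq2 adjusted p = 0.00143). Otof (otoferlin, the calcium sensor of hair cell exocytosis) had 13169, 10632 and 11392 apical and 1345, 3105 and 730 basal counts and a log2 fold change of -2.43 (SE 0.59, edgeR adjusted p = 0.438, DESeq2 adjusted p = 0.0428). Sh3gl2 (endophilin A1, of vesicle recycling) had 1113, 1413 and 1160 apical and 110, 386 and 375 basal counts, with a log2 fold change of -1.85 (SE 0.75) and passed neither test (edgeR adjusted p = 0.762, DESeq2 adjusted p = 0.120). DESeq2 also called Rab3a, a vesicle GTPase, with 1629, 1110 and 1007 apical and 386, 265 and 413 basal counts. Its remaining call was Syngr3, a synaptic vesicle protein too low for the edgeR filter, with 0 counts in the apical libraries and basal replicate 1 and 328 and 220 in basal replicates 2 and 3. Syngr3 thus had counts in those libraries alone in which the synucleins were high.

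Genes reported to modify or clear synucleins likewise did not follow them as a group, and more of them were lower than higher in basal libraries. The list holds kinases, chaperones, ubiquitin ligases and lysosomal and other proteases, reported mostly from work on human and mouse proteins. Of 40 matched genes 36 were tested, 12 with higher and 24 with lower fitted values in basal libraries and a median log2 fold change of -0.33. By edgeR's quasi-likelihood test 0 passed, 1 had an unadjusted p under 0.05 (higher in basal libraries), and DESeq2 called 1 in each direction. The median was -0.41 to -0.19 with a library left out and -0.59 without basal replicates 2 and 3. Cryab (alpha B-crystallin, a small heat shock protein that holds unfolded proteins) had 355, 376 and 287 apical and 2845, 11578 and 20076 basal counts. The groups were far apart, and the basal libraries of highest Cryab were again replicates 2 and 3. The log2 fold change of 5.28 had an SE of 0.71 (edgeR adjusted p = 0.406, DESeq2 adjusted p = 4.04e-09), and earlier results of these data had already shown it.

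Fyn, a tyrosine kinase, resembled the synucleins, with 368, 290 and 699 apical and 90, 2561 and 2747 basal counts. Basal replicate 1 was its lowest library, so the groups overlapped, and its log2 fold change of 2.26 (SE 1.05, edgeR adjusted p = 0.906, DESeq2 adjusted p = 0.344) turned to -1.87 without basal replicates 2 and 3. Csnk2b, the regulatory subunit of casein kinase 2, had 19454, 20524 and 24966 apical and 12692, 9269 and 5984 basal counts and a log2 fold change of -0.88 (SE 0.43, edgeR adjusted p = 0.940, DESeq2 adjusted p = 0.593). Capn2, a calcium-activated protease, had 2308, 2814 and 2252 apical and 647, 1030 and 1891 basal counts and a log2 fold change of -0.83 (SE 0.49, edgeR adjusted p = 1.00, DESeq2 adjusted p = 0.599). Both had all apical libraries above all basal ones and passed neither test. The remaining DESeq2 call was Grk5, a receptor kinase too low for the edgeR filter, with 48, 88 and 5 apical and 0 basal counts.

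**Figure D3:**
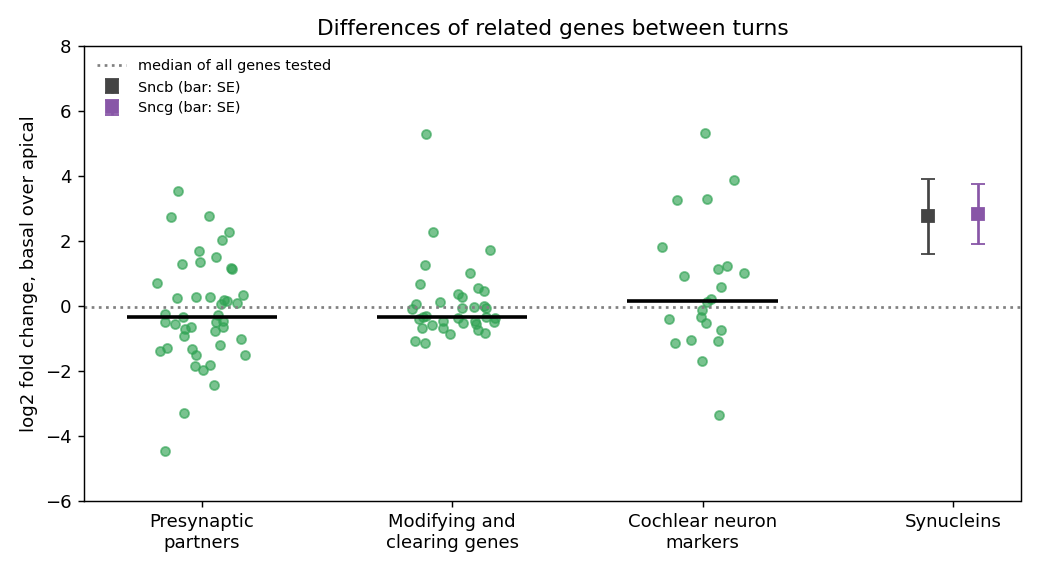
Log2 fold change of basal over apical libraries for each tested gene of 3 lists (points), with the list median (bar), the median of all genes tested (dotted line) and the synucleins with their standard errors (squares). The medians lie at -0.35, -0.33 and 0.15, the last of these negative under other settings, and Sncb and Sncg at 2.75 and 2.83.

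Markers of cochlear nerve fibres included genes seen in every library and genes seen almost only in basal replicates 2 and 3. Of 38 such markers, 21, 22 and 22 had a count in the apical replicates, in order, and 17, 28 and 33 in the basal replicates. Over all genes, 16333, 13094 and 15915 had a count in the apical and 11880, 11244 and 15668 in the basal replicates. They took 0.0740% to 0.0968% of apical counts and 0.0474%, 0.107% and 0.146% of counts in basal replicates 1, 2 and 3, led by Uchl1 and Stmn2. The groups overlapped, and the highest shares were in basal replicates 3 and 2, the libraries of high Sncb and Sncg. The efferent markers Chat and Slc18a3, and Th, had 0 counts in all 6 libraries. The part of nerve fibre RNA in the synuclein values was not tested.

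The count filter kept 22 of these markers, 12 with higher and 10 with lower fitted values in basal libraries and a median log2 fold change of 0.15. That median was -0.68 without basal replicate 3, 1.05 without basal replicate 1, 1.23 with the filter lowered to 10 counts in all, and -2.60 without basal replicates 2 and 3. It was also negative with limma-voom (-0.44), on log2(FPKM + 1) and log2(FPKM + 0.1) (both -0.36), on log2 CPM with prior counts of 2 (-0.46) and 0.5 (-0.55), and in the block fit by replicate number (-0.04). No direction is therefore given for the list. By edgeR's quasi-likelihood test 0 passed, 1 had an unadjusted p under 0.05, and DESeq2 called 3, all higher in basal libraries. The groups did not overlap for 1 gene with basal and 1 with apical libraries higher, against 5.40% and 10.4% of all genes tested. Nefh (neurofilament heavy chain, of large axons) had 127, 139 and 160 apical and 170, 1358 and 4054 basal counts. As for Sncb, basal replicate 1 was just above the apical range and the other basal libraries were far above it, with a log2 fold change of 3.88 (SE 1.04, edgeR adjusted p = 0.438, DESeq2 adjusted p = 0.00714). Slc17a7, a vesicular glutamate transporter of afferent neurons, had 0, 21 and 0 apical and 0, 129 and 769 basal counts (log2 fold change 5.33, SE 3.24, edgeR adjusted p = 1.00, DESeq2 adjusted p = 0.482), and the groups overlapped. Its log2 fold change was 3.29 without basal replicate 3 and 11.2 without apical replicate 2.

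The other DESeq2 calls were markers that the filter kept out. Among them Tubb3, the neuronal tubulin, had 0, 0 and 1 apical and 0, 410 and 797 basal counts (DESeq2 adjusted p = 0.00538). Another filtered gene, Prph (peripherin, a filament of peripheral and type II afferent fibres), had 0 counts in the apical libraries and basal replicate 1 and 86 and 351 in the others. It was named after its values were seen. The 2 markers with the largest share of counts on the list overlapped between the turns. Uchl1 had 2016, 2353 and 7125 apical and 833, 1930 and 2825 basal counts, and Stmn2 had 3358, 2986 and 1330 apical and 3139, 1340 and 2380 basal counts. Calca, a neuropeptide precursor of efferent fibres, had the opposite tendency, with 3668, 3795 and 1317 apical and 1254, 1315 and 867 basal counts and a log2 fold change of -1.08 (SE 0.57, edgeR adjusted p = 1.00, DESeq2 adjusted p = 0.596). Nsg2, a neuronal endosome protein, had 2852, 1727 and 1722 apical and 1286, 514 and 421 basal counts (log2 fold change -1.15, SE 0.63, edgeR adjusted p = 1.00, DESeq2 adjusted p = 0.566). All 3 basal libraries were below all apical ones in raw counts for both genes, but for neither after scaling.

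The genes nearest in pattern were ranked by the root mean square difference of centred log2 CPM over the 6 libraries, among 9038 other genes with a mean of at least 10 CPM. That mean was over all 6 libraries, so a gene low in apical libraries could enter through high basal libraries alone. Nearest to Sncb were Secisbp2l (0.25), Vim (0.32), Glul (0.34), Etl4 (0.36) and Sptssa (0.37). Vim encodes vimentin, an intermediate filament of glia and connective tissue, and had 2155, 1925 and 3581 apical and 4916, 25671 and 27158 basal counts. Glul encodes glutamine synthetase, an enzyme of glia, and had 972, 432 and 656 apical and 883, 5379 and 3224 basal counts. Secisbp2l, related to a factor of selenoprotein synthesis, had 1522, 943 and 1883 apical and 1992, 7385 and 8213 basal counts. Like Sncb, these 3 genes were high in basal replicates 2 and 3, with basal replicate 1 much nearer to the apical libraries. Sptssa, a subunit of the enzyme that starts sphingolipid synthesis, had 3415, 1568 and 4221 apical and 7639, 21203 and 29557 basal counts.

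Nearest to Sncg were Mitf (0.47), Nxn (0.59), Eif4ebp1 (0.60), Tln1 (0.67) and Csrp1 (0.68), all farther off than the genes nearest to Sncb. Mitf, a transcription factor best known from melanocytes, had 27, 133 and 195 apical and 100, 1577 and 491 basal counts. Like Sncg it was lowest in apical replicate 1, as were the other genes of this group once scaled by library totals. Tln1, which encodes talin, a link between integrins and actin, had 212, 226 and 324 apical and 207, 1738 and 1587 basal counts. Eif4ebp1, a repressor of translation initiation, had 175, 501 and 303 apical and 226, 1777 and 1836 basal counts. The synucleins were not each other's nearest genes. Their difference was 0.88, which placed Sncg at rank 149 for Sncb and Sncb at rank 23 for Sncg.

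**Figure D4:**
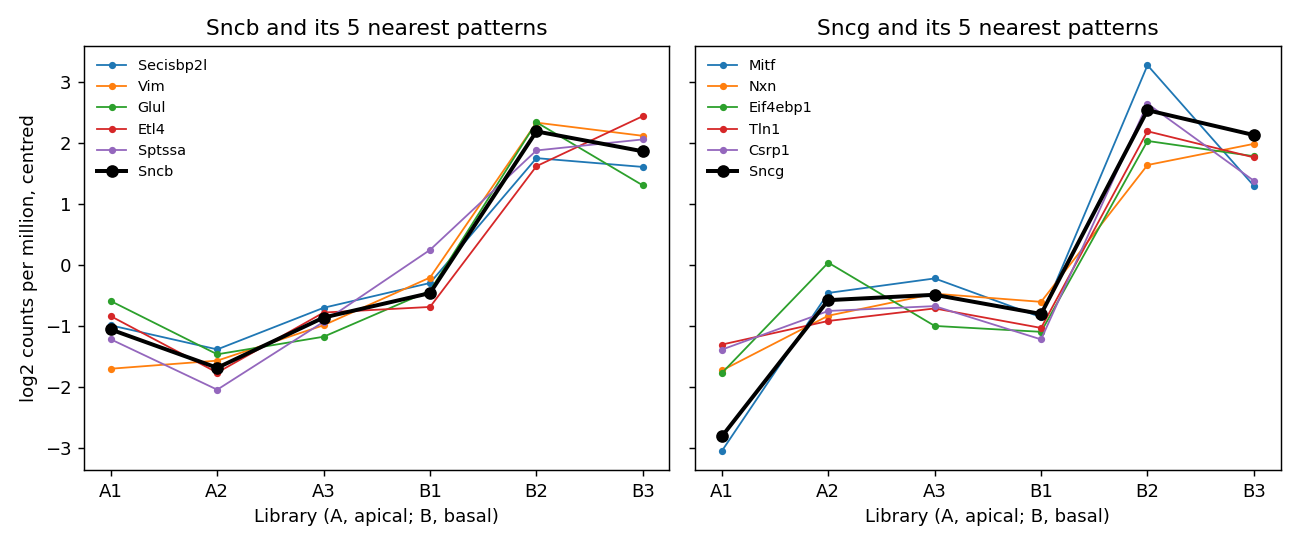
Log2 CPM, scaled by library totals and centred on each gene's mean, of Sncb (left) and Sncg (right) in black with the 5 genes nearest to each in colour, over the 3 apical (A) and 3 basal (B) libraries; lines join libraries only to show each gene's profile. In both panels all genes are highest in B2 and B3, and in the right panel all genes are lowest in A1.

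Leaving out any single library kept both synuclein differences above 0. Basal replicate 2 or 3, the high libraries, stayed in each of these fits, so they could not show the difference without those libraries. The log2 fold change of Sncb ranged from 2.36 without basal replicate 2 to 3.22 without basal replicate 1, and that of Sncg from 2.34 without basal replicate 2 to 3.33 without basal replicate 1. Of the alternatives run, only the joint removal of basal replicates 2 and 3, chosen after the data were seen, brought them below 1, to 0.91 and 0.37. With a single basal library left, its spread was taken to be that of the apical libraries.

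**Figure D5:**
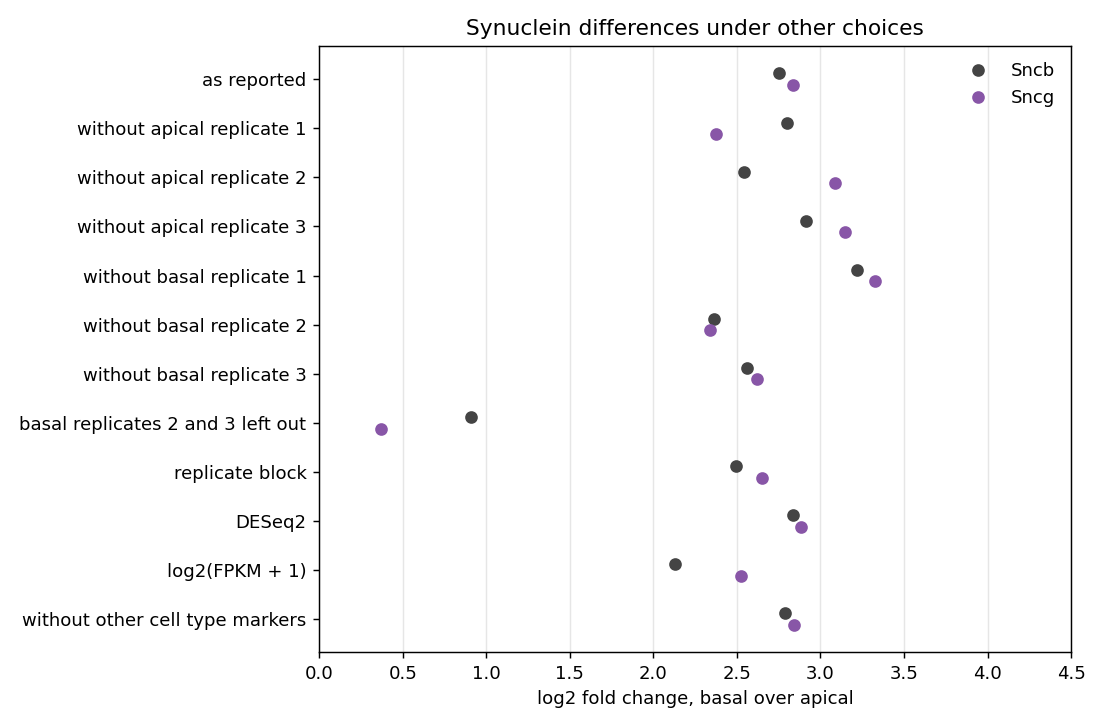
Log2 fold change of basal over apical libraries for Sncb and Sncg as reported and under other choices of libraries, scaling, test and unit. All values lie between 2.13 and 3.33 except those without basal replicates 2 and 3, at 0.91 and 0.37. The setting without other cell type markers drops those marker genes before scaling. It cannot take RNA of other cells out of the synuclein counts.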

How the data were processed

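The authors deposited a table of FPKM values and of read counts as whole numbers for each gene, per the file headers; TopHat2 2.0.12 and Bowtie2 2.2.3 were used, per the submitters' processing notes. For the counting tool, annotation, build, amplification and test, nothing is stated in the sources used here. The kit named in the labels' protocols does not record strand. The deposited FPKM of Sncb equals its count divided by the listed length of 1327 bases and the library total; that of Sncg implies 737 bases where 770 are listed. The authors' deposited log2 fold changes, mean normalized signal per group and p-values stand in the same table, per the file headers; of these the log2 fold changes of the synucleins are quoted, and the p-values were not used.

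Counts were tested with edgeR 4.0.16 in R 4.3.3 (filterByExpr, TMM, glmQLFit with its defaults, glmQLFTest, Benjamini-Hochberg adjustment over 13507 genes), with no covariate. Standard errors were computed from the log2 fold change and the square root of F. DESeq2 1.42.0 on the whole table and limma 3.58.1 were alternatives; DESeq2 gave no adjusted p for 21066 genes, which stay out of its counts. Both synucleins pass the filter on the counts of either turn. Named genes are the 4 of smallest p in each list, markers of the labelled cell type, neighbours and the 5 nearest patterns. DESeq2 calls, Prph and Rbfox3 were added after their values were seen. The synucleins and all lists were chosen with earlier results of these data known. By symbol or older symbol, 55 of 56 presynaptic, 40 of 41 modifying and 38 of 38 neuron genes were matched. The test was checked on simulated counts. Intervals and floors cover counting error only. Some listed genes are not reported here.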

Additional observations from a re-analysis of the deposited data

How the results depend on the processing

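The count of genes called by edgeR's quasi-likelihood test was 0, and it was 0 to 2 with a library left out. It was 1 with genes of at least 10 counts in all, 8 with any count, 28 in the bias-adjusted form, 663 by DESeq2, 363 by DESeq2 on the genes tested with edgeR, and 289 without basal replicates 2 and 3; the cause was not tested. That last setting, added after seeing the data, also gave a log2 fold change of 0.91 for Sncb and 0.37 for Sncg, medians of -1.27, -0.59 and -2.60 for presynaptic, modifying and neuron genes, and turned Fyn (-1.87) and Slc17a7 (-5.96). The presynaptic median was -1.02 on log2 CPM with a prior count of 0.5. With a library left out, the log2 fold change of Ocm2 ranged from -0.0882 to 1.80 and that of Pou4f3 from -1.02 to 1.46. Pou4f3 also turned with limma-voom (-0.0954), on log2(FPKM + 1) (-0.0791) and log2(FPKM + 0.1) (-0.0892), on log2 CPM with prior counts of 2 (-0.0238) and 0.5 (-0.0242), and in the block fit by replicate number (-0.0339).

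Deviations of same-numbered libraries of the turns were at most weakly correlated over genes (r = -0.0384, 0.00667 and 0.138 for numbers 1, 2 and 3). Differently numbered libraries gave r from -0.136 to 0.102, so number 3 had the highest value. With values this small, the numbers are not taken as pairs. With the replicate number as a block the log2 fold changes of Sncb and Sncg were 2.50 and 2.65 and 0 genes were called. Sncb had at least 59 and Sncg at least 136 counts in every library, so counting error was small beside the spread among basal libraries, up to 10.2-fold for Sncg.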
